A study of Mus musculus with 2 samples.

Results

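Genes that mark the developmental age of cortical progenitors were examined in single-cell transcriptomes of the embryonic mouse forebrain. They were the nuclear factor I genes Nfia, Nfib and Nfix, the zinc finger gene Zbtb20, the chromatin gene Hmga2, and the RNA-binding protein genes Igf2bp1 and Lin28b. These 7 genes, taken by symbol from the 32285 genes of the deposited tables, were followed by cell class and library whatever their result. Dorsal telencephalon of embryonic day 14.5 mice had been dissociated with papain and profiled with a droplet kit that captures the 3′ ends of poly(A) RNA. Both libraries belonged to 1 group, labelled WT, and both titles carry the name EomesDot. Their titles end in a number that both share, whose meaning is not stated, followed by 2 and 4, which name the replicates here. The study's methods describe C57BL/6J embryos, and how these relate to the name EomesDot is not stated, nor whether the libraries came from separate litters. With 1 genotype, 1 stage and no treatment, cell classes within the libraries could be compared, but not animals or ages. The p-values below measure the spread between these 2 libraries, which may be technical.

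Radial glial cells (RGCs), the stem cells of the cortex, first expand, then produce deep-layer and later upper-layer neurons, mostly through intermediate progenitor cells (IPCs), and finally turn to glia. LIN28B binds precursors of let-7 microRNAs and blocks their maturation, while HMGA2, a chromatin architectural protein, and IGF2BP1, which binds messenger RNA, are well-known let-7 targets that mark young progenitors. NFIA, NFIB and NFIX are DNA-binding factors that rise as progenitors age and promote differentiation and gliogenesis, and ZBTB20 is a repressor known from the hippocampal primordium and from later progenitors.

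The let-7 seed and its matches are shown because they tie Lin28b, Hmga2 and Igf2bp1 together by sequence. The 11 let-7 and miR-98 loci found in RefSeq (GRCm38.p6) gave 9 distinct mature 5p sequences, and these shared 1 seed (bases 2 to 8). The seed is in capitals in 3 of them, let-7a from chr13:48538239-48538260 (minus strand), let-7i from chr10:122985698-122985719 (minus strand) and miR-98 from chrX:151913229-151913250 (plus strand):
let-7a-5p: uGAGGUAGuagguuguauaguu
let-7i-5p: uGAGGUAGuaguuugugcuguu
miR-98-5p: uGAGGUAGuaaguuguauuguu
The seed's reverse complement, CTACCTC, was searched in the longest annotated 3′ UTR of each gene's coding transcripts (GENCODE vM39, sense strand only). Lin28b, Hmga2 and Igf2bp1 each held 4 matches, Nfia held 1, and Nfib, Nfix and Zbtb20 held 0. Of 20955 UTRs, 11.9% had at least 1 match and 0.0716% had 4 or more. UTR lengths differed, from 3021 bases in Hmga2 to 23858 in Zbtb20. The first 2 matches of the 3 genes are given with the match in capitals:
Lin28b match 1: ccttcacccgggcgggaagtCTACCTCatg
Lin28b match 2: gtacatatacttgttagtaaCTACCTCtga
Hmga2 match 1: ggggcgccgacattcaatttCTACCTCagc
Hmga2 match 2: ataatccccactcctcaataCTACCTCtga
Igf2bp1 match 1: gcagtgctgtgcgaagtaaaCTACCTCaag
Igf2bp1 match 2: ggaaccagcagtgctattaaCTACCTCagc
A match is a run of letters and not a measured site. Mature let-7 has no poly(A) tail and was not measured here.

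Of 4301 barcodes, 3153 cells were retained, 1197 in replicate 2 (median 30810 UMIs, molecular tags that each mark 1 captured transcript) and 1956 in replicate 4 (median 22948.5). Classes were rebuilt here by clustering and naming from marker genes, and the 7 genes took no part in the clustering. RGC-like cells numbered 230 and 410 in the 2 libraries, IPC-like cells 227 and 378, excitatory neuron-like cells 535 and 766, and interneuron-like cells of the medial ganglionic eminence (MGE) 54 and 84. The RGC markers summed to 7387 and 6303 CPM (counts per 1e+06 UMIs) in RGC-like cells and to 347 and 362 in excitatory neuron-like cells. IPC-like cells carried 2214 and 2125 CPM of IPC markers together with 2522 and 2991 CPM of excitatory neuron markers. Of them, 264 (43.6%) lay in clusters 3 and 5, in which most of the excitatory neuron markers were raised. Striatal projection neuron-like cells, foreign to the dorsal telencephalon, numbered 1 in replicate 2 and 66 in replicate 4, and hemoglobin and other erythroid markers in RGC-like cells summed to 72.3 and 2396 CPM. Microglia markers summed to 169 and 183 CPM in IPC-like cells and to 28.0 and 20.7 in RGC-like cells, and IPC-like cluster 14 carried most of them (844 and 711 CPM, against 12 to 20.5 in the other IPC-like clusters). The part of these cells in the IPC-like values was not tested. The libraries shared 3 cell barcodes.

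**Figure D1:**
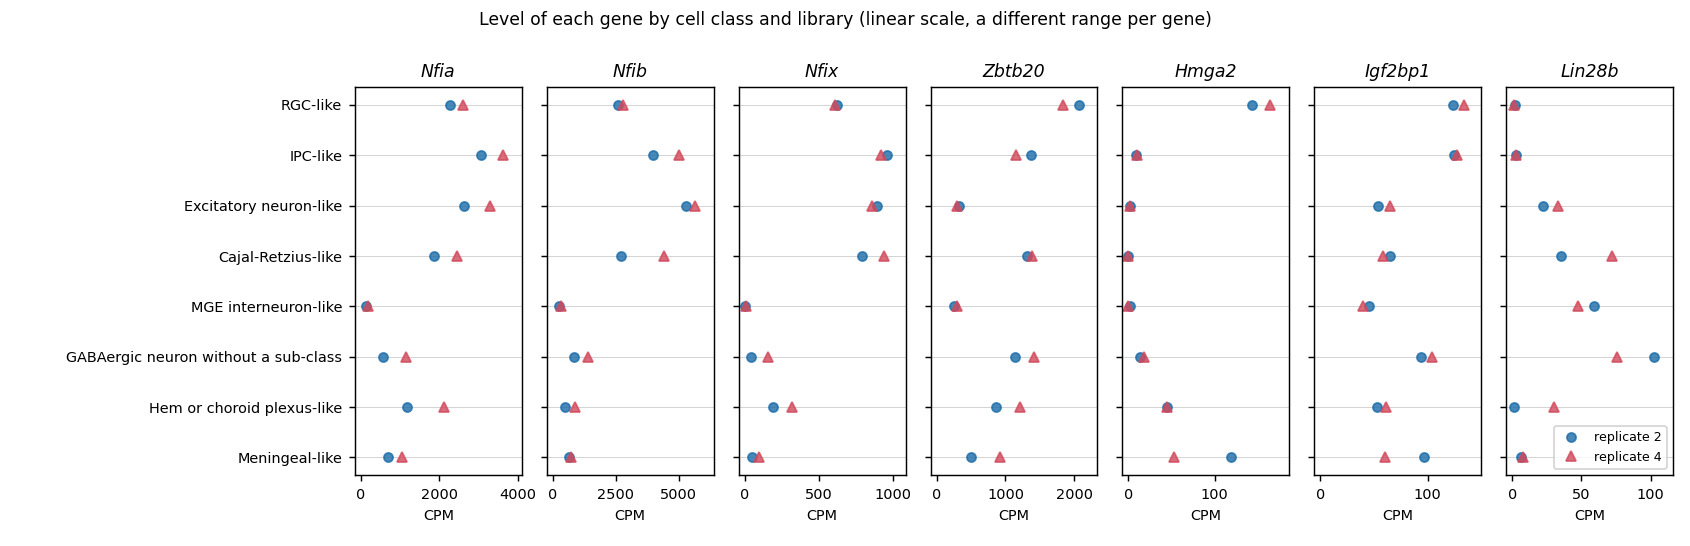
Level of each gene, in CPM on a linear axis with its own range, in the 8 cell classes that had at least 10 cells in each library, with circles for replicate 2 and triangles for replicate 4. Nfia, Nfib and Nfix are near 0 on their scales in MGE interneuron-like cells, Hmga2 peaks in RGC-like cells, and Lin28b is low in RGC-like and IPC-like cells, with the hem or choroid plexus-like cells of replicate 2 at a like level.

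Among the nuclear factor I genes, Nfia (chr4:97578066-98118876, GRCm38.p6) stood at 2284 CPM in replicate 2 and 2611 in replicate 4 in RGC-like cells, 3074 and 3623 in IPC-like cells, and 2628 and 3288 in excitatory neuron-like cells. The ranges of the last pair overlapped, while RGC-like cells were lower than either. Nfib (chr4:82290173-82506751) stood at 2585 and 2775 CPM in RGC-like cells, at 3981 and 4994 in the IPC-like class, and at 5301 and 5642 in the excitatory neuron-like class, with no overlap. Nfix (chr8:84704712-84801238) was at 623 and 610 CPM in RGC-like cells, 957 and 921 in the IPC-like class and 892 and 857 in excitatory neurons. None of these ranges overlapped between RGC-like and IPC-like cells, with the 3 genes higher in IPC-like cells in both libraries. IPC-like cluster 0, which carried fewer neuron markers, had Nfix at 619 and 595 CPM, near the RGC-like level. Cajal-Retzius-like cells, the earliest cortical neurons, also carried these genes, Nfia at 1872 and 2443 CPM and Nfix at 790 and 942. MGE interneuron-like cells were the lowest of the 8 classes for each of these genes, with 122 and 175 CPM of Nfia, 261 and 322 of Nfib, and 0 and 7.12 of Nfix. That is 0 Nfix UMIs in 54 cells of replicate 2, for which 3 counts, the floor used here, would be 2.41 CPM, and 8 UMIs in 84 cells of replicate 4. The long noncoding gene E130114P18Rik overlaps Nfia, and since use of strand and introns in the counting is not stated, reads of the pair may not be fully separated. It stood at 274 and 247 CPM in RGC-like cells and at 357 and 351 in IPC-like cells.

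Zbtb20 (chr16:42875689-43634392) was highest at the start of the same lineage, with 2071 and 1837 CPM in RGC-like cells, 1375 and 1160 in the IPC-like class and 332 and 294 in excitatory neuron-like cells, and none of these ranges overlapped. RGC-like cells had the highest level of the 8 classes with no overlap with the next, Cajal-Retzius-like cells at 1306 and 1380. Both gaps, to IPC-like and to Cajal-Retzius-like cells, depended on 1 RGC-like cluster, number 9, chosen here after its values were seen. Without its 116 cells, RGC-like Zbtb20 was at 1538 and 1360 CPM. This range overlapped Cajal-Retzius-like and IPC-like cells but not excitatory neuron-like cells. RGC-like cells still stood above IPC-like cells within each library. IPC-like cluster 5, also high in Zbtb20 (3508 and 2455 CPM), was kept. Cajal-Retzius-like, unspecified GABAergic, IPC-like, hem or choroid plexus-like and meningeal-like cells formed a chain of overlapping ranges between 498 and 1419 CPM. The lowest pair, excitatory neuron-like and MGE interneuron-like cells (255 and 302 CPM), overlapped as well.

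Hmga2 (chr10:120361268-120476469) was at 143 CPM in replicate 2 and 165 in replicate 4 in RGC-like cells. It dropped to 8.71 and 10.5 in IPC-like cells and to 1.89 and 2.14 in excitatory neuron-like cells, where it rested on 34 and 42 UMIs. Outside the lineage Hmga2 was found in meningeal-like cells at 119 and 53.4 CPM and in hem or choroid plexus-like cells at 44.7 and 44.4. Their clusters also had 5 and 7 of the 12 RGC markers raised, and the part of this in these levels was not tested. No Hmga2 UMI was counted in the 40 Cajal-Retzius-like cells. Igf2bp1 (chr11:95957163-96005944) did not separate the progenitor classes, with 124 and 134 CPM in the RGC-like class and 125 and 127 in IPC-like cells. It was lower in excitatory neuron-like cells (54.0 and 64.8 CPM) and lowest in MGE interneuron-like cells (45.8 and 40.0).

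Lin28b (chr10:45376617-45486314) ran the other way. RGC-like cells held 14 and 13 Lin28b UMIs, or 1.70 and 1.15 CPM (exact Poisson 95% intervals, for counting error only, 0.932 to 2.86 and 0.612 to 1.97). IPC-like cells had 2.44 and 2.62 CPM, from 16 and 23 UMIs. Excitatory neuron-like cells had 22.1 and 32.8 CPM, from 398 UMIs in 123 cells and 644 UMIs in 213 cells. Of the 8 classes compared, the 3 richest in Lin28b were GABAergic cells without a sub-class (103 and 75.8 CPM), Cajal-Retzius-like cells (34.9 and 72.2) and MGE interneuron-like cells (59.4 and 47.2), and the last pair overlapped. The first of these was not a class of neurons alone, since 50 of its 91 cells lay in a sub-cluster led by Top2a and Mki67, genes of dividing cells, which held Lin28b at 100.3 and 54.6 CPM. Thus the 3 genes grouped as marks of young progenitors did not share a pattern at this stage, since Hmga2 and Igf2bp1 were higher in RGC-like than in neuron-like cells and Lin28b was lower. Hem or choroid plexus-like cells had 1.66 CPM in replicate 2, 2 UMIs in 1 of 33 cells, and 30.5 in replicate 4, 22 UMIs in 8 of 22 cells. The genes Popdc3 and Bves next to Lin28b were at 0 to 0.803 CPM in MGE interneuron-like cells.

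Cells with at least 1 UMI were counted after thinning each cell to 5000 UMIs, which left out 17 RGC-like, 34 IPC-like, 64 excitatory neuron-like and 9 MGE interneuron-like cells with fewer. Hmga2 was found in 36.4% ± 0.348 (SD, n = 2 libraries) of RGC-like cells, 3.69% ± 0.0881 of IPC-like cells and 0.805% ± 0.0271 of excitatory neuron-like cells, against 57.2%, 8.90% and 2.14% with all UMIs. Lin28b was found in 0.946% ± 0.0912 of RGC-like, 0.654% ± 0.261 of IPC-like, 9.94% ± 1.28 of excitatory neuron-like and 15.4% ± 0.492 of MGE interneuron-like cells, against 3.83%, 3.70%, 25.4% and 35.3% unthinned. Of 124 barcodes led by hemoglobin, 0 held a UMI of Hmga2 or of Lin28b, which allows a share of up to 2.42% for each (median 865 and 6712 UMIs, mostly hemoglobin). Whether the cells behind these barcodes lack both genes is not known here. With so few other UMIs this limit is not a measured background for cells thinned to 5000 UMIs, so whether the low shares of Lin28b in progenitor-like cells and of Hmga2 in neuron-like cells come from free RNA was not tested. Nfix was found in 1.32% ± 1.86 of thinned MGE interneuron-like cells and in 83.9% ± 1.68 of excitatory neuron-like cells, and in 5.26% and 2.99% of the hemoglobin-led barcodes of the 2 libraries. With all UMIs, Nfix was found in 0 of 54 and 5 of 84 MGE interneuron-like cells (0% and 5.95%), and the part of free RNA in these was not tested.

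From RGC-like to IPC-like cells, the step from stem cell to committed progenitor, Hmga2 was the only member called in the main fit. Its level was 15-fold higher on the RGC-like side (log2 fold change 3.91 with an SE of 0.30, adjusted p = 3.76e-06, edgeR's quasi-likelihood test with Benjamini-Hochberg adjustment over 12889 genes). So 1 of the 7 genes was called, upward, beside 33.3% of all genes tested (17.1% higher and 16.3% lower), and the members' median log2 fold change was -0.53 beside 0 over all genes. Nfib (-0.83 ± 0.32, adjusted p = 0.0676), Nfix (-0.69 ± 0.48, adjusted p = 0.305) and Nfia (-0.53 ± 0.36, adjusted p = 0.282) lay on the IPC-like side without passing. Zbtb20 (0.54 ± 0.26, adjusted p = 0.134), Igf2bp1 (-0.05 ± 0.17, adjusted p = 0.866) and Lin28b (-0.94 ± 0.72, adjusted p = 0.354) did not pass either. With the library as a block, which pairs the classes of a library, Nfia (adjusted p = 0.0493) and Nfib (adjusted p = 0.00731) also passed. The Zbtb20 difference turned to -0.092 with cells of at least 500 genes and to -0.025 with UMIs split between class naming and test. Without the IPC-like clusters that carried neuron markers, the Hmga2 difference was 3.10 (adjusted p = 3.41e-05), Zbtb20 passed at 0.91 (adjusted p = 0.0234) and Nfib stood at -0.17 (adjusted p = 0.761), Nfia at -0.22 and Nfix at -0.038.

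From IPC-like to excitatory neuron-like cells, Zbtb20, Hmga2 and Igf2bp1 fell and Lin28b rose. Zbtb20 was 3.52-fold higher in IPC-like cells (log2 1.81 ± 0.27, adjusted p = 1.86e-04), Hmga2 4.13-fold (2.05 ± 0.34, adjusted p = 5.65e-04) and Igf2bp1 1.84-fold (0.88 ± 0.17, adjusted p = 0.00146), while Lin28b was 12.3-fold higher in neuron-like cells (-3.62 ± 0.52, adjusted p = 1.48e-04). That made 4 of 7 called, beside 35.1% of all genes, with 3 higher in IPC-like cells (15.3% of all genes) and 1 lower (19.8%). Nfib (-0.49 ± 0.32, adjusted p = 0.279), Nfix (-0.10 ± 0.48, adjusted p = 0.903) and Nfia (-0.02 ± 0.36, adjusted p = 0.975) did not pass. By CPM, Nfix and Nfia were somewhat higher in IPC-like cells in each library, while the fold changes use TMM scaling, which CPM does not. Without the clusters that carried neuron markers, Nfib passed at -1.10 (adjusted p = 0.0143) and the Hmga2 difference was 2.90, so both depended on where the class ends.

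Between the ends of the lineage, Hmga2 was 62.1-fold higher in RGC-like than in excitatory neuron-like cells (log2 5.96 ± 0.34, adjusted p = 7.86e-08), Zbtb20 5.13-fold (2.36 ± 0.28, adjusted p = 1.09e-05) and Igf2bp1 1.78-fold (0.83 ± 0.17, adjusted p = 0.0012). Lin28b was 23.6-fold higher in neuron-like cells (-4.56 ± 0.55, adjusted p = 1.49e-05) and Nfib 2.48-fold (-1.31 ± 0.33, adjusted p = 0.00431). This made 5 of 7, beside 53.6% of all genes, with 3 higher (24.1% of all genes) and 2 lower (29.5%), so a call was common in this comparison. Without replicate 4 the Lin28b difference was -3.89, a value with no test. Nfia (-0.56 ± 0.36, adjusted p = 0.211) and Nfix (-0.79 ± 0.48, adjusted p = 0.191) did not pass, and Nfia did with the library as a block (adjusted p = 0.0297). The comparisons along the lineage share their samples and are not independent of each other.

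MGE interneurons arise in the subpallium and migrate into the cortex, and they differed from local excitatory neuron-like cells in the nuclear factor I genes. Nfia was 21.4-fold lower in MGE interneuron-like cells (log2 -4.42 ± 0.42, adjusted p = 1.16e-05) and Nfib 20.2-fold lower (-4.34 ± 0.37, adjusted p = 5.49e-06). For Nfix the fitted difference was -8.10 ± 0.78 (adjusted p = 1.34e-05), a size set by 8 UMIs in 1 library, and it was -7.0 and -13.27 without replicate 2 and 4 in turn. So 3 of 7 were called, all lower, beside 20.3% of all genes (13.5% lower and 6.79% higher). Lin28b did not pass (0.85 ± 0.45, adjusted p = 0.219), although the libraries did not overlap, and it passed in 4 of 14 alternatives. Igf2bp1 (-0.58 ± 0.20, adjusted p = 0.0604), Hmga2 (-1.34 ± 1.04, adjusted p = 0.429) and Zbtb20 (-0.28 ± 0.27, adjusted p = 0.533) did not pass. Hmga2 rested on 2 and 0 UMIs in MGE interneuron-like cells, and its difference was -4.65 without replicate 2 and -0.32 without replicate 4. GABAergic neuron markers summed to 3636 and 3573 CPM in MGE interneuron-like cells and to 4.99 and 12.8 in excitatory neuron-like cells. Of all genes called here, 33.4% were higher in MGE interneuron-like cells with TMM scaling and 44.5% with DESeq2 size factors, which called the same number of members.

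Hem or choroid plexus-like cells, from the medial edge of the pallium, were set against RGC-like cells, with 33 and 22 cells in the libraries. Nfib was 3.55-fold lower (log2 -1.83 ± 0.33, adjusted p = 6.88e-04), Hmga2 3.17-fold (-1.66 ± 0.31, adjusted p = 9.54e-04), Igf2bp1 2.09-fold (-1.06 ± 0.20, adjusted p = 8.05e-04) and Zbtb20 1.74-fold (-0.80 ± 0.27, adjusted p = 0.0266). Lin28b was higher (3.34 ± 0.85, adjusted p = 0.0065), but its ranges overlapped, with replicate 2 inside the RGC-like range, and without replicate 4 the difference was 0.096. This made 5 of 7, beside 45.4% of all genes, with 1 higher (24.1% of all genes) and 4 lower (21.2%). Nfix (-1.16 ± 0.50, adjusted p = 0.0758) and Nfia (-0.46 ± 0.36, adjusted p = 0.318) passed with the library as a block (adjusted p = 0.0254 and 0.0449). Zbtb20 turned to the other side when cells were limited to 5% mitochondrial UMIs (1.09, adjusted p = 0.00303), and Nfib no longer passed there (-0.39, adjusted p = 0.312).

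**Figure D2:**
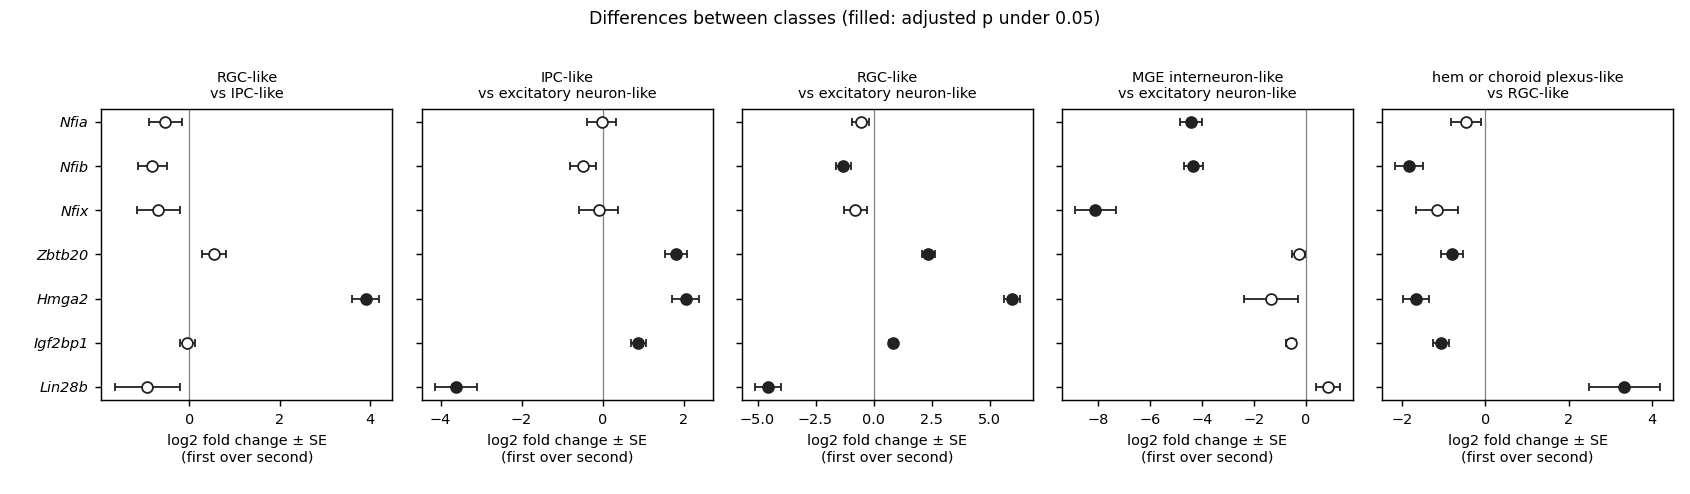
Log2 fold change of each gene (points, ± SE) in the 5 comparisons of cell classes, positive where the first class is higher, with filled points at an adjusted p under 0.05. Hmga2 is furthest to the right in all comparisons that start from RGC-like cells, and Nfia, Nfib and Nfix lie furthest to the left for MGE interneuron-like cells.

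Within the RGC-like class, the clusters differed most in Zbtb20 and Hmga2. These values are a description without a test, since clusters were formed from the same cells. Cluster 9 (35 and 81 cells) was led by Tmem132c, Gabrb1, Tnc, Ltbp1, Aldoc and Mt3. It held Zbtb20 at 5254 and 4206 CPM, against 770 to 1787 in clusters 7, 8 and 13, and Hmga2 at 1.70 and 13.2 CPM, against 99 to 229. Nfia (3860 and 3744 CPM), Nfib (3458 and 3687) and Nfix (1167 and 1064) were also highest there, with the other clusters at no more than 2531, 2847 and 617. Igf2bp1 was at 102 and 118 CPM there and between 103 and 163 in the others. Markers of other classes moved with this cluster, since IPC markers summed to 1110 and 1058 CPM, against 112 to 538 in the others, and hem or choroid plexus markers to 131 and 155, against 31.9 to 46.0. Interneuron markers of the caudal ganglionic eminence summed to 220 CPM there in replicate 2, against 28.6 to 98.4 in clusters 7 and 8. Meningeal markers summed to 87.4 and 50.1 CPM there and to between 0 and 4.23 in the others. RGC markers summed to 5066 and 4691, against 6542 to 8387, and erythroid markers in cluster 7 to 8081 in replicate 4. The part of these markers in the levels of the 7 genes was not tested.

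**Figure D3:**
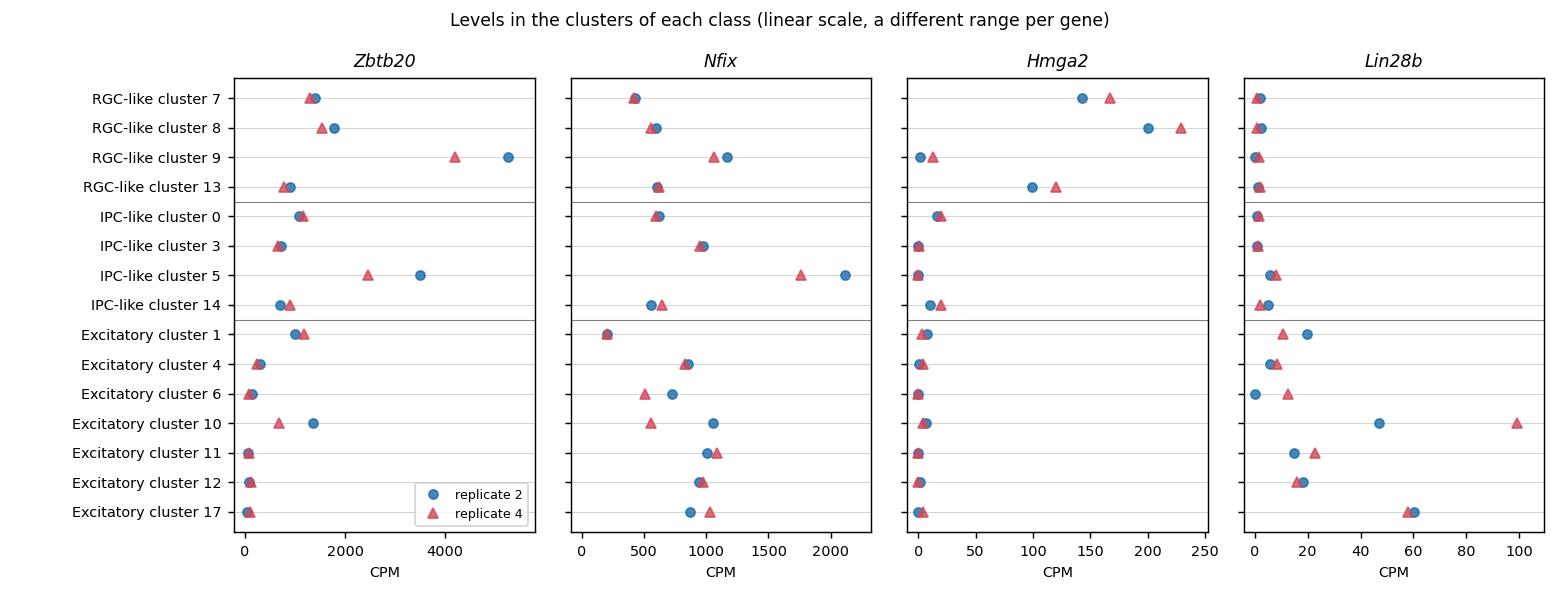
Levels of Zbtb20, Nfix, Hmga2 and Lin28b, in CPM on linear axes, in the clusters of excitatory neuron-like cells and of both progenitor-like classes, with circles for replicate 2 and triangles for replicate 4. RGC-like cluster 9 and IPC-like cluster 5 are high in Zbtb20, cluster 5 is highest in Nfix, Hmga2 is near 0 in cluster 9, and Lin28b is highest in excitatory clusters 10 and 17.

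Cell cycle phase, called from S and G2/M gene lists, moved with the same genes. In RGC-like cells Hmga2 was at 47.1 ± 36.8 CPM (SD, n = 2) in cells called G1, 147 ± 18.1 in S and 201 ± 17.8 in G2/M, and Zbtb20 at 3833 ± 495, 1656 ± 170 and 1505 ± 193. Igf2bp1 went from 103 ± 11.5 in G1 to 151 ± 1.02 in G2/M. Cluster 9 supplied 70 of the 132 cells called G1, so phase and cluster overlapped. Within G1 alone, Hmga2 was at 0 and 1.82 CPM in cluster 9 and at 136 and 62.3 in cluster 7, and Zbtb20 at 5770 and 5461 against 1618 and 1447. Within S, Hmga2 was at 5.72 and 31.2 CPM in cluster 9, which had 10 and 32 such cells, and at 148 and 189 in cluster 7. The cluster difference was thus present in both libraries within each of these phases. Among IPC-like cells, Nfix was at 1085 ± 55.1 CPM in G1, 499 ± 77.3 in S and 643 ± 76.7 in G2/M. Phase and cluster overlapped here too. Clusters 3 and 5, with mean Nfix of 961 and 1939 CPM, held 173 and 86 of the 420 cells called G1. Cluster 14, with a mean of 602, held 102 of the 105 cells called G2/M.

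**Figure D4:**
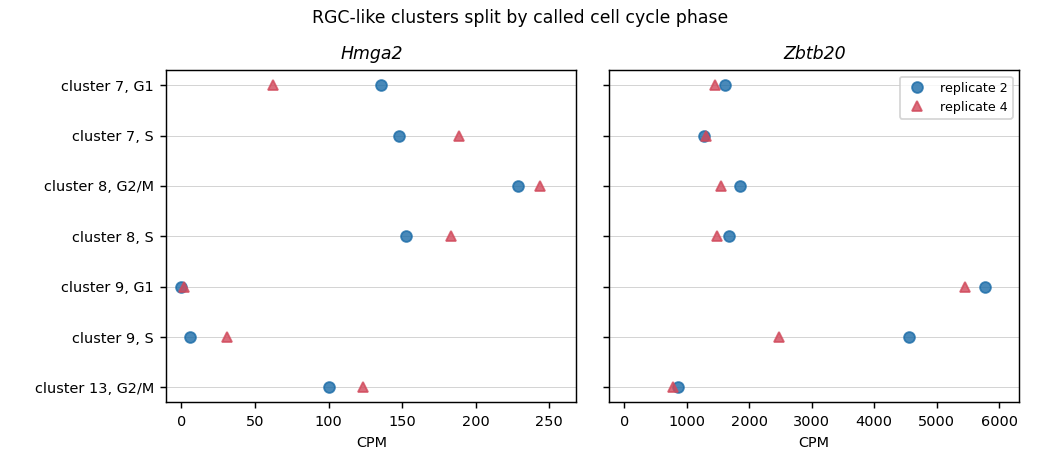
Hmga2 and Zbtb20 levels, in CPM on linear axes, in RGC-like cells split by cluster and called phase, for splits with at least 10 cells in a library, with circles for replicate 2 and triangles for replicate 4. In cells called G1, cluster 9 has Hmga2 at 0 and 1.82 CPM and cluster 7 at 136 and 62.3.

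Among IPC-like cells, cluster 5 (33 and 54 cells, with Synpr, Rmst, Zfpm2 and Nhlh2 among its leading genes) had the highest levels of the late genes. Zbtb20 was at 3508 and 2455 CPM there, against 658 to 1161 in the other 3 clusters. Nfix was at 2118 and 1760, against 557 to 973, and Nfia at 5201 and 5669, against 2085 to 3633. Hmga2 had 0 UMIs in the 87 cells of this cluster. Cajal-Retzius markers moved with it, at 344 and 534 CPM summed (47.5 to 213 in the other IPC-like clusters). Interneuron markers of the caudal ganglionic eminence summed to 201 and 287, against 66.0 to 82.5 in clusters 0 and 3. Hem or choroid plexus markers were at 157 and 71.1, the latter inside the range of the other clusters (16.8 to 74.9). Excitatory neuron markers were at 2687 and 2996 beside 1818 and 1919 of IPC markers, and were higher in cluster 3 (4125 and 4455). Their part in these levels was not tested. The remaining Hmga2 UMIs of IPC-like cells lay mainly in cluster 0 (16.4 and 19.7 CPM) and in cluster 14 (10.1 and 20.2), which was led by mitotic genes such as Top2a and Mki67, and cluster 3 had 0 and 3 UMIs. Both also carried RGC markers, which summed to 2500 and 2429 CPM in cluster 0 and to 2438 and 1764 in cluster 14, and cluster 14 held the microglia markers given above.

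Excitatory neuron-like clusters separated in Zbtb20 and Lin28b. Zbtb20 was at 996 and 1186 CPM in cluster 1 (with Sema3c and Tfap2d among its leading genes) and at 1358 and 689 in cluster 10 (Tafa1, Slit3), against 48.7 to 304 in the others. Markers of other classes moved with these clusters, with the caudal ganglionic eminence (CGE) interneuron list at 330 and 575 CPM summed in cluster 1 and 211 and 884 in cluster 10, against 19.6 to 140 in clusters 4, 11, 12 and 17 and 459 and 325 in cluster 6. The IPC markers summed to 640 and 746 in cluster 1, against 58.5 to 463 in the others. Their part in the Zbtb20 levels was not tested. Cluster 1 had the lowest Nfix, 204 and 202 CPM, against 512 to 1088 in the others. Lin28b was at 46.9 and 99.4 CPM in cluster 10 and at 60.4 and 58.0 in cluster 17 (Rgs6, Hs3st4), and between 0 and 22.7 in the other 5. Cluster 10 was therefore high in both genes, and cluster 17 in Lin28b with Zbtb20 at 48.7 and 97.6 CPM. Cluster 6 (53 cells) had a median of 3732 UMIs and hemoglobin genes among its leading genes, and leaving it out changed no call among the 7 genes. Among MGE interneuron-like cells, the sub-cluster led by Sst had 80.4 and 68.4 CPM of Lin28b and the other 15 and 18.7, while Nfib was at 81.6 and 239 against 640 and 433.

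The genes with the most similar profile to each member were ranked by Pearson's r over the 8 classes, within each library, taking the lower of the 2 values. Over 8 points many of the 12888 genes compared correlate, and the classes share their libraries, so these are descriptions. Nfia and Nfix were each other's closest match (r = 0.977), and E130114P18Rik was near both (0.902 with Nfia, 0.925 with Nfix), as were Cycs to Nfia (0.966) and Zpr1 to Nfix (0.924). Nfib was closest to Gm11266 (0.951) and to Lhx2 (0.917), a transcription factor of cortical progenitors, and then to Nfix (0.913). Zbtb20 was closest to Gas2l3 (0.908), Cntrl (0.896) and Rbm8a (0.882), and Hmga2 to Notch3 (0.966), Wwtr1 (0.958) and Tcf7l2 (0.954). Igf2bp1 was closest to the splicing factor gene Srsf3 (0.941), Ankhd1 (0.930) and Foxn2 (0.917). Lin28b had the loosest matches, Sap30l (0.865), Thsd7a (0.863) and Stk32c (0.862).

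Other genes of the LIN28 and let-7 pathway (let-7 processing and targets, 12 tested) showed no common direction. Between RGC-like and IPC-like cells 4 of 12 passed, beside 33.3% of all genes, and the median log2 fold change was -0.03. Mycn, which encodes N-MYC, was at 52.0 and 52.8 CPM in RGC-like cells, against 23.5 in both libraries of the IPC-like class (1.07 ± 0.17, adjusted p = 3.70e-04), and Ago2, an Argonaute that carries microRNAs, at 152 and 158 against 83.3 and 80.0 (0.84 ± 0.21, adjusted p = 0.00882). Arid3a and Arid3b were lower in RGC-like cells (-1.52 ± 0.35 and -0.84 ± 0.26). Between RGC-like and excitatory neuron-like cells 4 of 12 passed, beside 53.6% of all genes, Ago2 and Dgcr8, a partner of Drosha, upward and both Arid3 genes downward. Between IPC-like and excitatory neuron-like cells 1 of 12 passed, beside 35.1% of all genes, Mycn (-0.96 ± 0.17). Mycn was also the 1 of 12 called, lower, in MGE interneuron-like cells (-1.86 ± 0.24), beside 20.3% of all genes. In hem or choroid plexus-like against RGC-like cells 5 of 12 passed, beside 45.4% of all genes, with Arid3b higher (1.24 ± 0.35) and Mycn (-2.70 ± 0.28), Dgcr8, Igf2bp3 and Drosha lower.

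Of the 15 genes listed for gliogenic competence, 11 were tested, and the expression filter left out Gfap, Aqp4, Aldh1l1 and Klf15. Between RGC-like and IPC-like cells 9 of these 11 passed, beside 33.3% of all genes, with a median log2 fold change of 2.0. Higher in RGC-like cells were Tnc (126 and 91.7 CPM against 2.44 and 0.799, log2 6.05 ± 0.73), Ptprz1 (721 and 675 against 36.1 and 45.0, log2 4.02 ± 0.39), Hopx, Zcchc24, Sox9, Fgfr3 and Nfic, the fourth nuclear factor I gene. Apoe (-2.26 ± 0.34) and Apcdd1 (-1.13 ± 0.27) were lower. Between IPC-like and excitatory neuron-like cells 7 of 11 passed, beside 35.1% of all genes, 5 of them higher in IPC-like cells, among these Apoe (90.1 and 164 CPM against 2.05 and 4.33) and Hopx, while Ptprz1 (-3.87 ± 0.39) and Sparcl1 (-2.89 ± 0.52) were lower. Apoe is also a gene of microglia, whose markers summed to 169 and 183 CPM in IPC-like cells, 28.0 and 20.7 in RGC-like cells and 17.9 and 13.1 in excitatory neuron-like cells, and their part in its differences was not tested. RGC-like and excitatory neuron-like cells differed in 9 of 11, beside 53.6% of all genes, 7 of them higher in RGC-like cells. In MGE interneuron-like cells 6 of 11 passed against excitatory neuron-like cells, beside 20.3% of all genes, all lower, and Mmd2 had 0 UMIs in MGE interneuron-like cells against 49.5 and 52.6 CPM. In hem or choroid plexus-like against RGC-like cells 6 of 11 passed, beside 45.4% of all genes, with Apoe (4.28 ± 0.37) and Apcdd1 (1.69 ± 0.30) higher and Mmd2, Ptprz1, Tnc and Fgfr3 lower.

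Polycomb genes, which act through repressive histone marks, and H3K27 demethylase genes, which remove 1 such mark, moved in both directions. Between RGC-like and IPC-like cells 4 of 11 passed, beside 33.3% of all genes, with Suz12 higher in RGC-like cells (265 and 272 CPM against 155 and 186, log2 0.57 ± 0.17) and Kdm6b (42.7 and 46.2 against 93.6 and 111, log2 -1.29 ± 0.16), Jarid2 (-0.96 ± 0.22) and Ezh1 lower. Between IPC-like and excitatory neuron-like cells 4 of 11 passed, beside 35.1% of all genes, Cbx2 (1.29 ± 0.32), Suz12 (0.82 ± 0.17) and Ezh2 upward and Bmi1 (-0.54 ± 0.16) downward. Across the whole lineage 9 of 11 passed, beside 53.6% of all genes, with Suz12, Cbx2, Eed, Rnf2 and Ezh2 higher in RGC-like cells and Kdm6b, Ezh1, Jarid2 and Bmi1 lower. In MGE interneuron-like cells Bmi1 alone of the 11 passed (-0.76 ± 0.19), beside 20.3% of all genes. In hem or choroid plexus-like cells 5 of 11 passed, beside 45.4% of all genes, with Ring1 higher (1.41 ± 0.28) and Ezh2 (142 and 182 CPM against 473 and 521, log2 -1.50 ± 0.16), Suz12 (-1.13 ± 0.18), Eed and Bmi1 lower than in RGC-like cells.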

How the data were processed

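The deposited files hold raw UMI counts per gene and barcode, which the authors made with Cell Ranger (version 7.0.0, build mm10 per the submitters' processing notes), with no normalization, and the gene and barcode names as other text columns per the file headers. Use of intronic reads and of strand is not stated.

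Cells needed 1000 detected genes and no more than 10% mitochondrial UMIs, and 29 doublets called by Scrublet (0.761% to 1.16% per library) were removed in scanpy 1.11.5. After scaling each cell to 10000 UMIs and taking logs, Leiden clustering (resolution 1, 2000 variable genes, 30 components, 20 neighbours, no library correction) gave 24 clusters. The 7 genes and the listed genes were left out of the variable genes. A cluster was named from at least 3 markers raised by log2 1 over the median cluster (10 CPM added) in at least 25% of cells. GABAergic clusters were clustered again (15 neighbours) into 8 sub-clusters. The names are rebuilt and may differ from those of the study. A cluster of 87 cells of low depth stayed unnamed.

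UMI counts were summed per library and class, and 8 classes (10 or more cells per library, 16 sums) entered 1 fit with edgeR 4.0.16 (quasi-likelihood test, TMM, filterByExpr), with Benjamini-Hochberg adjustment over 12889 genes and calls were made below an adjusted p of 0.05. Each SE was derived from the F statistic. Striatal projection neuron-like cells had 1 cell in replicate 2, so their planned comparison was not made. CPM is per 1e+06 UMIs of the sum, without the TMM factors that enter the fold changes. Ratios of CPM can therefore differ from the fitted folds. Sums of the same number share a library, which pairs them. Over 28 pairs of classes, deviations from the class means correlated with a median of 0.0988 (0.0197 to 0.306). The highest were lineage pairs, RGC-like with IPC-like cells (0.306), IPC-like with excitatory neuron-like cells (0.298) and RGC-like with excitatory neuron-like cells (0.283). MGE interneuron-like with excitatory neuron-like cells were at 0.173, and hem or choroid plexus-like with RGC-like cells at 0.124. The main fit did not use this pairing, and the block was an alternative. Other alternatives were DESeq2 1.42.0, other filters, clusterings, and a split of each cell's UMIs between class naming and test. The fits were tested on simulated data, in which 67.7% of changes of log2 1 were recovered between RGC-like and IPC-like cells.

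The genes and gene lists were chosen with earlier results of these data known. Named are the 7 genes in each comparison, the 3 genes most like each, and in each list the 2 called genes of largest fold each way where there were as many, with further called list genes by name only. Positions and microRNAs are from RefSeq GRCm38.p6, and UTR matches from GENCODE vM39 transcripts of another build, for which no coordinates are given. Of 18 names in the LIN28 list, 15 were matched.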

Additional observations from a re-analysis of the deposited data

Results flagged for a closer look

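The 865 barcodes with too few detected genes, which entered no comparison, still held UMIs of each of the 7 genes, above the limit that a count of 0 allows. They held 563 UMIs of Nfia, 1107 of Nfib, 371 of Nfix and 302 of Zbtb20, and 26 of Igf2bp1, 15 of Hmga2 and 4 of Lin28b, out of 1678741 UMIs. In CPM, that was 335 for Nfia, 659 for Nfib and 8.94 for Hmga2. The 124 of these barcodes that were led by hemoglobin held 12 and 1 UMIs of Nfia and 23 and 3 of Nfib in the 2 libraries, and 0 of Hmga2, Igf2bp1 and Lin28b. No group held 4 or more libraries, so samples were not tested for outlying values.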

How the results depend on the processing

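Over 14 alternatives per comparison (12, or 11 for Lin28b, for hem or choroid plexus-like cells, a class that was not found with at least 500 genes or at Leiden resolution 0.5), 419 of 475 log2 fold changes of the 7 genes kept their direction and side of the threshold, 30 gained a call, 2 lost it and 24 reversed, of which 1 was a call, Zbtb20 in hem or choroid plexus-like cells at 1.09 with at most 5% mitochondrial UMIs (Nfia 0.26 and Nfix 0.31 there also reversed). The cause was not tested. The 2 lost calls were of Nfib there (-0.39) and of Lin28b in the same comparison with split UMIs (2.81, adjusted p = 0.0595). The remaining reversals were of uncalled values. For RGC-like against IPC-like cells these were Zbtb20 at -0.092 (at least 500 genes) and -0.025 (split UMIs), Lin28b at 0.30 (resolution 0.5) and 0.066 (these genes allowed in clustering), and Igf2bp1 at 0.012 (DESeq2 size factors and DESeq2), 0.011 (at least 500 genes), 0.015 (split UMIs), 0.034 (all genes) and 0.059 (resolution 2). For IPC-like against excitatory neuron-like cells they were Nfix at 0.0057 (all genes) and Nfia at 0.048 (DESeq2 size factors and DESeq2), 0.082 (all genes), 0.081 (at least 500 genes, doublets kept), 0.025 (the 2 classes alone), 0.034 (mitochondrial limit), 0.12 (these genes allowed in clustering) and 0.0025 (split UMIs). Hmga2 in MGE interneuron-like cells was at 0.92 with split UMIs. With the library as a replicate block, 3 members were called between RGC-like and IPC-like cells, where Nfia (-0.53) and Nfib (-0.81) gained a call, and 4637 genes in all; beyond the gains named in the report it changed no call of the 7 genes. Members called there were 4 with all genes, 5 with the 2 classes alone, 2 with at least 500 genes and 2 without the IPC-like clusters that carried neuron markers, an alternative added after seeing the data. Genes called there fell from 4297 to 2694 with doublets kept and 2784 without those clusters, and between IPC-like and excitatory neuron-like cells they went from 4523 to 7028 with the 2 classes alone. Calls of Lin28b, Hmga2, Zbtb20 and Igf2bp1 along the lineage, and of Nfia, Nfib and Nfix in MGE interneuron-like cells, held in 14 of 14 alternatives. Leaving out a library left values with no test, with Nfix in MGE interneuron-like cells at -13.27 without replicate 4, since replicate 2 had 0 UMIs. Called differences ranged over the alternatives from 3.10 to 4.04 for Hmga2 between RGC-like and IPC-like cells, and from -4.65 to -3.01 for Lin28b between the IPC-like and neuron-like classes. DESeq2 size factors moved the median of all genes by 0.12 between RGC-like and neuron-like cells and by 0.11 for MGE interneuron-like cells. Levels in clusters and phases were not recomputed under the alternatives. Lin28b in RGC-like and IPC-like cells rests on 13 to 23 UMIs per library, which limits its precision there.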

Other observations

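Some of the 7 genes were also found in classes too small for the fit and in a sub-cluster of GABAergic cells. Interneuron-like cells of the caudal ganglionic eminence (6 and 31 cells) held Nfib at 2622 and 2798 CPM, where MGE interneuron-like cells held 261 and 322, and Nfix at 10.9 and 5.64 CPM, from 1 and 2 UMIs. Lin28b was at 54.6 and 36.7 CPM in them, the 5 UMIs of replicate 2 in 1 cell. The 66 striatal projection neuron-like cells of replicate 4 held 838 CPM of Zbtb20, 72.6 of Lin28b, 112 of Nfia and 7.74 of Nfix. Of their 116 Nfia UMIs, 74 lay in 1 cell. Vascular-like cells (9 and 18) held Lin28b at 57.9 and 51.2 CPM, and 13 of the 17 UMIs of replicate 2 lay in 1 cell. In the GABAergic cells without a sub-class, a class that was in the fit, the sub-cluster with Top2a and Mki67 as leading genes (8 and 42 cells) held Hmga2 at 31.7 and 18.6 CPM. No test was made on these values.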
